A study of Homo sapiens with 18 samples.

Results

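LX-2 cells, an established line of human hepatic stellate cells, gave RNA-seq profiles that were alike in 3 groups with different labels: thrombin for 4 h, serum-free control for 24 h and thrombin for 48 h. Each group had 3 libraries, so the 3 groups made up 9 of the 18 libraries and 3 of the 6 groups of the study. They were chosen by measured values: the similarity of their gene counts over the whole transcriptome. The number of genes that separate them, and the distances between them, are therefore given as a description of these libraries, and their likeness is not tested.

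All cells were plated in 6-well dishes at 180000 cells per well, grown for 48 h and moved to serum-free medium for 1 h. The thrombin groups then received the clotting protease at 1 U/mL, and the control groups stayed in serum-free medium without it. RNA was enriched for polyadenylated transcripts. Thrombin 48 h against thrombin 4 h changes the time alone. The other two comparisons, control 24 h against thrombin 4 h and thrombin 48 h against control 24 h, change agent and time together, and neither can be read as an effect of thrombin or of time. The groups are named as labelled: among 961 genes with a thrombin call at each of 4 h and 24 h, 948 moved in reverse directions. Whether labels of one of those times were exchanged was not tested. An exchange would change what thrombin or control means in the comparisons given here. The study used 1 cell line. The 3 libraries of a group carry the numbers 12, 13 and 14, each behind an unexplained letter p. No source used here says whether they are separate cultures. P-values therefore measure only how these libraries vary, and part of that may be technical.

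Hepatic stellate cells are the liver cells that store vitamin A at rest and, after injury, turn into contractile, matrix-depositing myofibroblasts. Thrombin cleaves the protease-activated receptor PAR1, encoded by F2R, which signals through heterotrimeric G proteins to the GTPase RhoA and the actin cytoskeleton. Polymerized actin releases the coactivators MRTF and YAP/TAZ to the nucleus, where they act with the DNA-binding factors SRF and TEAD on contractile and matricellular genes. Receptor signalling also reaches NF-kappa-B, which drives genes of inflammation and cell survival.

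The 9 libraries held 14431044 to 20955646 counts, and all 18 held 14431044 to 23270601. Levels are CPM, counts relative to the library total after scaling by the trimmed mean of M values (TMM), and are not divided by gene length. The marker levels in this paragraph are CPM without the TMM scaling. The labelled cell type was checked against its markers: the 22 genes of a stellate and myofibroblast list summed to 6810 to 7480 CPM in the 9 libraries, led by vimentin. Medians over the 9 libraries were 3610 CPM for vimentin, 2100 for COL1A1, 697 for SPARC, 254 for TIMP1, 73.4 for PDGFRB and 23.9 for LHX2. Low members included ACTA2 (median 10.3 CPM), PDGFRA (1.55), GFAP (0.811) and CYGB (0.102). The desmin gene DES (3.1 CPM) and the retinol-esterifying enzyme gene LRAT (0.306 CPM) were low as well. Markers of hepatocytes summed to 4.53 to 7.49 CPM, mostly SERPINA1 (4.03 to 6.03 CPM), with TTR at 0 in all 9 libraries. Those of endothelial cells summed to 54.9 to 71.0 CPM, led by TIE1 (31.9 to 42.7 CPM) and VWF (9.15 to 19.3 CPM). The endothelial cadherin gene CDH5 was at most 0.802 CPM. Those of macrophages and leukocytes summed to 76.5 to 95.9 CPM, mostly the lysosomal gene CD68. Those of cholangiocytes and epithelia summed to 147 to 193 CPM, mostly SOX9, with EPCAM at most 0.205 CPM. The ranges of these sums overlapped between the 3 groups, except that the endothelial sum was 60.1 to 71.0 CPM in thrombin 4 h and 55.1 to 57.3 in thrombin 48 h. In such bulk libraries fewer cells of a type and less RNA per cell cannot be told apart.

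Libraries numbered 12 stood apart in the comparison of the 2 thrombin groups. The counts of the 3 comparisons are also given without them. So are those of the gene lists described here, where they change in these comparisons. The spread between libraries of a group (biological coefficient of variation) was 9.07% with all 18 libraries, 7.12% without number 12, 11.1% without number 13 and 8.69% without number 14. A gene is called different where edgeR's quasi-likelihood test, fitted to all 18 libraries, gave an adjusted p under 0.05 over 15353 tested genes. "Higher" and "lower" are used of called genes, and log2 fold changes are given ± standard error.

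Thrombin 4 h and control 24 h lay about as close to each other as libraries of one group, and thrombin 48 h lay slightly farther from both. The root mean square difference in log2 CPM between 2 libraries was 0.307 to 0.362 within thrombin 4 h, 0.324 to 0.367 within control 24 h and 0.325 to 0.381 within thrombin 48 h. Between thrombin 4 h and control 24 h it was 0.321 to 0.376. Thrombin 48 h lay 0.313 to 0.430 from thrombin 4 h and 0.325 to 0.435 from control 24 h. All of these ranges overlap, but the medians between groups were 0.343 for thrombin 4 h and control 24 h, 0.372 for the 2 thrombin groups and 0.361 for thrombin 48 h and control 24 h, beside 0.328 to 0.347 within groups. Against the 2 most distant groups, the distances of the 9 libraries were 0.395 to 0.512 from control 4 h and 0.426 to 0.541 from thrombin 24 h. The nearest library of each of the 9 was always one of the other 8. For 6 libraries it was a library of the same group, while thrombin 4 h library 12 and thrombin 48 h library 13 were nearest to each other (0.313) and control 24 h library 14 was nearest to thrombin 4 h library 12 (0.321).

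**Figure D1:**
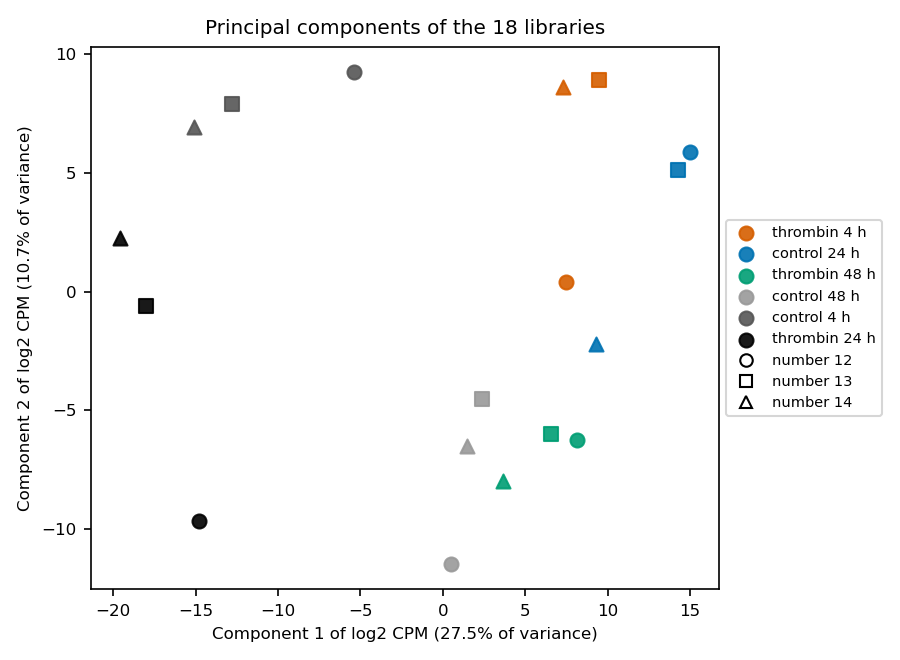
Each point is 1 of the 18 libraries on the first 2 principal components of log2 CPM over 1000 genes, coloured by group and with 1 marker shape per library number. The 9 libraries of thrombin 4 h, control 24 h and thrombin 48 h lie between 3.67 and 15 on component 1, above the 9 others, which lie at 2.36 or below.

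Few genes separated the 3 groups. Control 24 h and thrombin 4 h differed in 11 genes (0.0716% of those tested), thrombin 48 h and control 24 h in 55 (0.358%), and thrombin 48 h and thrombin 4 h in 170 (1.11%). Differences of 2-fold or more were called for 1, 3 and 22 genes. A single test for any difference among the 3 groups called 142 genes (0.925%). Unadjusted p-values under 0.05 were found for 857, 1450 and 2132 genes in the same order of comparisons. Against the other group of its own time, thrombin 4 h differed from control 4 h in 1813 genes (11.8%) and control 24 h differed from thrombin 24 h in 2700 genes (17.6%). Those counts also moved with the libraries: leaving out libraries gave 96 (without number 13) to 3560 (without number 12) for the first and 936 to 2489 for the second.

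At 48 h the picture differed: thrombin 48 h and control 48 h were not separated by any called gene (0%), with 1110 genes at an unadjusted p under 0.05, and DESeq2 called 20. Control 48 h nevertheless differed from thrombin 4 h in 463 genes (3.02%) and from control 24 h in 940 genes (6.12%). Thrombin 48 h therefore had fewer called differences from control 48 h than from the groups it is set with here, and it lay 0.324 to 0.395 from control 48 h libraries. The median of these distances was 0.35, beside 0.372 from thrombin 4 h and 0.361 from control 24 h. Control 48 h lay 0.324 to 0.455 from thrombin 4 h and 0.368 to 0.458 from control 24 h. Whether control 48 h differs from the 3 groups by more than they differ among themselves was not tested.

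**Figure D2:**
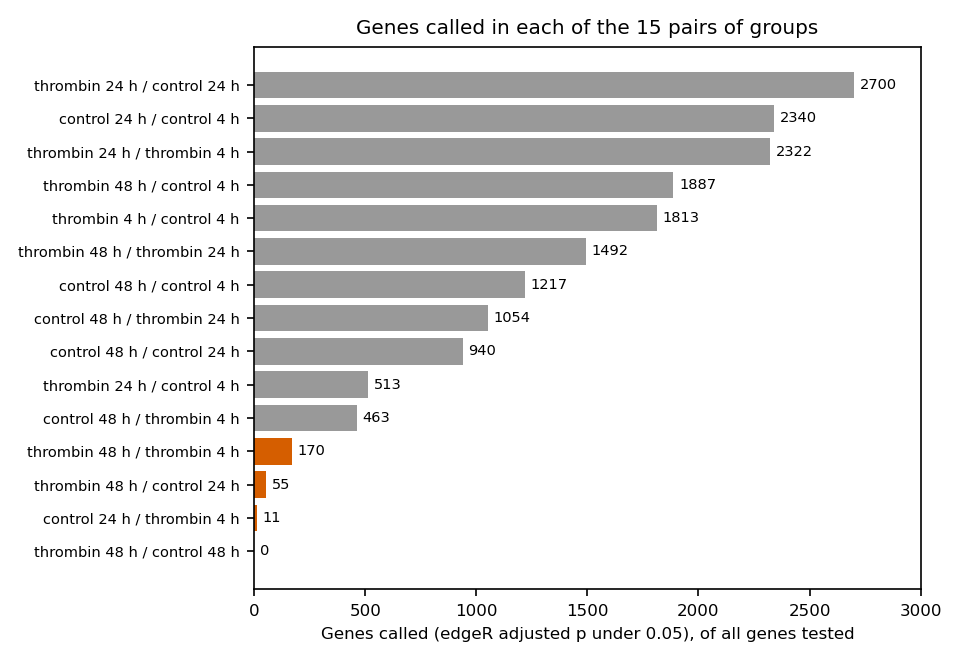
Bars give the genes called by edgeR (adjusted p under 0.05) among 15353 tested in each of the 15 pairs of groups. The 3 pairs among thrombin 4 h, control 24 h and thrombin 48 h have 11, 55 and 170 genes, and thrombin 48 h against control 48 h has 0.

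The counts depended on the library numbers. Without the libraries numbered 12, thrombin 48 h and thrombin 4 h differed in 2530 genes (16.3% of 15520 tested), 1215 higher and 1315 lower, of which 70 changed 2-fold or more. Of the 170 genes called with all libraries, 166 were among them, all in the same direction. The count for thrombin 4 h against control 4 h was then 3560. The same step gave 78 genes (0.503%) for control 24 h against thrombin 4 h and 68 (0.438%) for thrombin 48 h against control 24 h. Leaving out thrombin 4 h library 12 alone raised the count for thrombin 48 h against thrombin 4 h to 559. Leaving out thrombin 48 h library 12 alone lowered that count to 107. Leaving out number 13 in every group lowered the 3 counts to 7, 0 and 2, and leaving out number 14 gave 59, 0 and 40. The count for the 2 thrombin groups thus rose when library 12 was left out of thrombin 4 h or of every group. It did not rise when library 12 was left out of thrombin 48 h alone. What sets the libraries of this number apart was not tested.

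**Figure D3:**
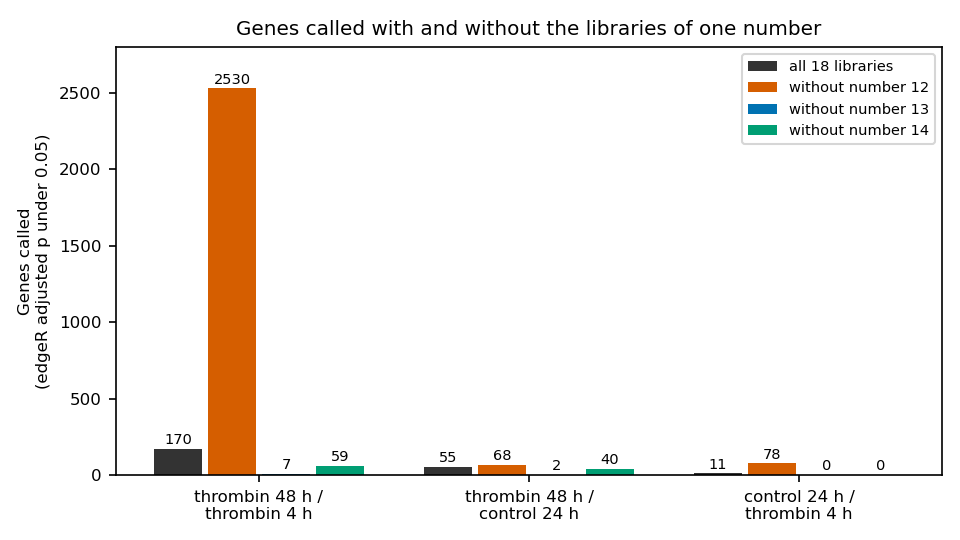
Bars give the genes called in each of the 3 comparisons with all 18 libraries and without the libraries of 1 number in every group. Thrombin 48 h against thrombin 4 h goes from 170 genes to 2530 without number 12 and to 7 without number 13.

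The state shared by thrombin 4 h and control 24 h was read from their comparisons with control 4 h and thrombin 24 h, which have no library in common. There 961 genes were called in both, and 948 lay on the same side for the pair of alike groups: 468 higher (3.05% of tested genes) and 480 lower (3.13%). The choice of the groups fixes this direction. At 48 h, where no gene was called, 421 of the 468 had a positive difference of thrombin from control and 361 of the 480 a negative one, with medians of 0.13 and -0.10 on the log2 scale beside 0.01 over all genes. The planned rule, a call at all 3 times, left no gene, and the genes named next were chosen after this was seen, from those called at 4 h and 24 h.

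Of 11 keratin and cytolinker genes 6 were lower and 1 higher in thrombin 4 h than control 4 h (median -0.361), and 7 were lower and 1 higher in control 24 h than thrombin 24 h (median -0.768). At 48 h 0 were called, and 0 in the 3 comparisons among the alike groups. KRT34, which encodes a hair keratin, was at 8.16, 11.8 and 12.7 CPM in thrombin 4 h, 4.88, 6.47 and 11.4 in control 24 h and 13.6, 14.9 and 15.5 in thrombin 48 h (libraries 12, 13 and 14). It was at 37.0, 58.6 and 63.4 CPM in control 4 h and 27.4, 40.1 and 44.3 in thrombin 24 h. The 3 groups overlapped or lay next to each other, and all 9 values were below the 6 of control 4 h and thrombin 24 h; control 48 h, at 13.8 to 16.5 CPM, overlapped thrombin 48 h. KRTAP2-3, a keratin-associated protein gene with near-identical copies whose counts are uncertain, ran from 0.134 to 2.67 CPM in the 9 libraries and from 12.4 to 30.1 in control 4 h and thrombin 24 h.

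CXCL8, which encodes the neutrophil-attracting chemokine interleukin 8, was at 3.07 to 12.6 CPM in the 9 libraries and at 19.2 to 63.2 in control 4 h and thrombin 24 h. RARB, a retinoic acid receptor gene that is itself induced by retinoic acid, was at 1.80 to 4.01 CPM against 9.48 to 13.1. Neither gene overlapped between those sets of libraries. The other genes named by this rule on the low side were KRT33B, NPPB, RELN, SERPINB2, ESM1 and BTBD11.

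On the high side, PPL, which encodes the cytolinker periplakin, was at 52.9, 39.9 and 46.3 CPM in thrombin 4 h, 92.1, 86.4 and 61.2 in control 24 h and 72.9, 63.8 and 46.1 in thrombin 48 h. It was at 25.4, 14.3 and 12.9 CPM in control 4 h and 16.5, 14.5 and 10.0 in thrombin 24 h. Every library of the 3 groups was above every library of those 2, and control 48 h (32.8 to 40.5 CPM) reached into the lower end of thrombin 4 h. C3, the central complement component, was at 1.72 to 4.86 CPM in the 9 libraries and 0.948 to 1.95 in control 4 h and thrombin 24 h, so these sets overlapped. GDF15, a stress-induced cytokine of the TGF-beta superfamily, was at 1.38 to 3.48 against 0.605 to 1.70 CPM, again with overlap. METTL7A, which encodes a lipid-droplet methyltransferase, was high in thrombin 4 h (7.88, 7.97 and 9.68 CPM) and control 24 h (7.42, 7.79 and 6.07) but at 3.64, 4.30 and 3.29 in thrombin 48 h. METTL7A thus also separated the groups: thrombin 48 h against thrombin 4 h was -1.17 ± 0.22 (edgeR adjusted p = 0.00621). The remaining genes of the rule on the high side were CDK18, NXPH3, ANXA9, LRRN4CL, GUCY1A2 and TRPV6.

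Contractile and TGF-beta genes were more often lower than higher in the shared state. Over all genes 5.52% were lower and 6.29% higher in thrombin 4 h than control 4 h, and 9.05% lower and 8.54% higher in control 24 h than thrombin 24 h. Of 25 cytoskeletal targets of SRF and MRTF, 11 were lower and 1 higher in thrombin 4 h than control 4 h, and 22 were lower and 1 higher in control 24 h than thrombin 24 h (medians -0.27 and -0.618). For 21 TGF-beta and SMAD response genes the counts were 8 lower at 4 h and 15 lower at 24 h, with 0 higher at both times (medians -0.248 and -0.609). Chemokine genes, 11 in all, gave 5 and 6 lower and 0 higher (medians -0.859 and -1.335). At 48 h no member of these lists was called, and their medians were 0.021, -0.082 and 0.029. Over all tested genes the medians were -0.001, -0.002 and 0.009 at 4, 24 and 48 h.

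Only 13 of the 961 genes lay on opposite sides, and sterol genes were among them: HMGCS1, IDI1 and SQLE of cholesterol synthesis, with LPIN1 of glycerolipid synthesis. For these 13, thrombin against control had the same direction at 4 h and 24 h. HMGCS1, which encodes an early enzyme of the mevalonate pathway, was at 877, 750 and 593 CPM in thrombin 4 h, 663, 819 and 895 in control 24 h and 802, 892 and 873 in thrombin 48 h. The 3 groups overlapped and stood between control 4 h (1419, 1140 and 1218 CPM) and thrombin 24 h (624, 415 and 491), although the latter overlapped the lowest thrombin 4 h library. Of 26 tested genes of cholesterol synthesis and uptake, 6 were higher and 7 lower in thrombin 4 h than control 4 h (median -0.09). In control 24 h against thrombin 24 h 20 were higher and 0 lower (median 0.527), and at 48 h 0 were called (median -0.044). None of the 26 was called in any of the 3 comparisons among the alike groups, with medians of -0.021, 0.017 and 0.029. Without the libraries numbered 12, 6 of the 26 were higher and 5 lower in thrombin 48 h than thrombin 4 h, and 0 were called in the other comparisons. Also on opposite sides were APOL2, CD24, CDKN2B, CHD4, FBXO4, NINJ1, RELB and TSC22D3.

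Thrombin 48 h against thrombin 4 h held most of the genes that separated the groups. Higher at 48 h were 98 genes (0.638%), among them 7 YAP/TAZ targets, 5 NF-kappa-B targets and 4 SRF/MRTF targets, and lower were 72 (0.469%), among them 2 NRF2 targets and the growth factor binding protein gene IGFBP6. Of the 193 genes called in any of the 3 comparisons, 127 were called in this one alone, 37 in this one and thrombin 48 h against control 24 h, and 6 in this one and control 24 h against thrombin 4 h. Another 18 were called only between thrombin 48 h and control 24 h, and 5 only between control 24 h and thrombin 4 h.

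Among 22 tested YAP and TAZ targets, 7 were higher in thrombin 48 h than in thrombin 4 h and 0 lower (AMOTL2, ANKRD1, CCN1, CCN2, CRIM1, LATS2 and MYOF), with a median of 0.234 beside 0.006 over all genes. In thrombin 48 h against control 24 h 6 were higher and 0 lower (AMOTL2, ANKRD1, CCN1, CCN2, CRIM1 and DLC1; median 0.231 beside 0.003). Control 24 h against thrombin 4 h called 0 of 22 (median 0.011 beside -0.003). The list was chosen with results of these libraries known.

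CCN1, the matricellular growth factor CYR61, was at 363, 307 and 374 CPM in thrombin 4 h, 298, 353 and 392 in control 24 h and 615, 651 and 620 in thrombin 48 h. Thrombin 48 h lay above both other groups without overlap, and those 2 overlapped each other. The difference was 0.85 ± 0.09 from thrombin 4 h (edgeR adjusted p = 9.3e-06) and 0.85 ± 0.09 from control 24 h (edgeR adjusted p = 9.41e-06), and CCN1 kept both calls in all 15 alternative settings. Control 48 h was at the level of thrombin 48 h, with 666, 600 and 615 CPM.

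CCN2, connective tissue growth factor, was at 123, 91.8 and 109 CPM in thrombin 4 h, 90.8, 108 and 119 in control 24 h and 171, 189 and 194 in thrombin 48 h. Again thrombin 48 h stood apart from the other 2, by 0.78 ± 0.12 (edgeR adjusted p = 0.00188) and 0.80 ± 0.12 (edgeR adjusted p = 0.002). The CCN2 mean was 190 CPM in control 48 h, beside 184.9 in thrombin 48 h. ANKRD1, an ankyrin-repeat cofactor of muscle genes, was at 16.8, 9.13 and 14.6 CPM in thrombin 4 h, 15.6, 14.0 and 24.2 in control 24 h and 34.2, 38.7 and 46.8 in thrombin 48 h. It was higher in thrombin 48 h by 1.56 ± 0.19 than in thrombin 4 h (edgeR adjusted p = 0.00025; called in all 15 alternatives) and by 1.15 ± 0.19 than in control 24 h (edgeR adjusted p = 0.00695; called in 10 of 15). The ANKRD1 mean was 39.5 CPM in control 48 h, beside 39.9 in thrombin 48 h.

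The promoters of genes that moved together are shown for the binding words of their known regulators: TEAD, the DNA partner of YAP and TAZ, reads GGAATG, and SRF reads the CArG box. The sequences are the 250 bases before the annotated start in RefSeq (GRCh38.p14), written 5′ to 3′ on the gene's strand, with matches on that strand in capitals. CCN2 (chr6:131951373-131951622, minus strand) held 3 copies of GGAATG, which begin 169, 104 and 95 bases before the start. ANKRD1 (chr10:90921088-90921337, minus strand) held 2, at 220 and 128 bases. ACTG2, the smooth muscle gamma actin gene (chr2:73892758-73893007, plus strand), held CArG boxes at 110 and 73 bases.
CCN2: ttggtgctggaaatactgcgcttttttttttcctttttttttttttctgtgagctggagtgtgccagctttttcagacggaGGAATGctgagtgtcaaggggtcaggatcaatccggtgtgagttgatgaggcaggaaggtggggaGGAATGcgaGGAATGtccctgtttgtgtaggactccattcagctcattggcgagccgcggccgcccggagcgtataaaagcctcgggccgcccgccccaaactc
ANKRD1: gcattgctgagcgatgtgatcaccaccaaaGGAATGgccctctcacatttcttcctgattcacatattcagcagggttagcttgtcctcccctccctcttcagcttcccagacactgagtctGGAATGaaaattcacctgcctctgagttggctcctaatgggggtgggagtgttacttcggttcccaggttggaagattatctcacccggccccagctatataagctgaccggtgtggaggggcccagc
ACTG2: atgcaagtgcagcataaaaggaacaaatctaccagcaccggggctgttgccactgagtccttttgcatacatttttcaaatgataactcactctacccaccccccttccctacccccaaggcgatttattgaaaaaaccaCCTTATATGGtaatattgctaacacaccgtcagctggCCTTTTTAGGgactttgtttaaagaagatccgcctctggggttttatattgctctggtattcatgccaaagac

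Over all genes these words are common enough that a match alone says little. GGAATG, on either strand, was found in the 250 bases before the start in 11.9% of 27305 genes. Among the 11609 tested genes with a promoter entry the share was 9.72%. Among the 70 genes higher in thrombin 48 h than thrombin 4 h that had an entry, 8 held it (11.4%). At least 2 matches, as in CCN2 and ANKRD1, were held by 0.963% of all promoters and 0.724% of promoters of tested genes. A CArG box was found in 1.14% of all promoters, in 1.03% of promoters of tested genes and in 2 of those 70 (2.86%). A match is a description of the letters and not of binding.

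Cytoskeletal targets of SRF and MRTF were higher in thrombin 48 h than in thrombin 4 h for 4 of 25 genes (ACTG2, CALD1, TAGLN and TPM1) and lower for 0, with a median of 0.144. Against control 24 h 3 were higher (CALD1, TAGLN and TPM1) and 0 lower (median 0.104), and control 24 h against thrombin 4 h called 0 (median 0.016). TAGLN, which encodes the actin-binding smooth muscle protein SM22, was at 36.9, 36.4 and 35.1 CPM in thrombin 4 h, 27.3, 23.6 and 24.6 in control 24 h and 77.1, 63.4 and 53.2 in thrombin 48 h. The 3 groups did not overlap, and control 24 h was the lowest. TAGLN was 1.36 ± 0.12 higher in thrombin 48 h than in control 24 h (edgeR adjusted p = 7.65e-07; called in all 15 alternatives) and 0.84 ± 0.12 higher than in thrombin 4 h (edgeR adjusted p = 0.000516; called in 14). The difference between control 24 h and thrombin 4 h, -0.52 ± 0.13, was not called (edgeR adjusted p = 0.169). Thrombin 24 h, at 139 to 149 CPM, was above all 9. The TAGLN mean was 78.1 CPM in control 48 h, beside 64.6 in thrombin 48 h.

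CALD1, which encodes the actin- and myosin-binding protein caldesmon, was at 240, 202 and 186 CPM in thrombin 4 h, 228, 246 and 254 in control 24 h and 414, 427 and 399 in thrombin 48 h. Thrombin 48 h lay above the other 2, by 0.98 ± 0.11 and 0.77 ± 0.11 (edgeR adjusted p = 2.06e-05 and 0.00126). TPM1, tropomyosin 1, was at 344 to 413, 403 to 426 and 570 to 586 CPM in the same order, higher in thrombin 48 h by 0.61 ± 0.08 and 0.49 ± 0.08 (edgeR adjusted p = 6.92e-05 and 0.00168). Its antisense transcript TPM1-AS was called in both comparisons as well, but without a known strand setting its reads and those of TPM1 cannot be told apart. ACTG2 was at 2.00, 1.36 and 2.61 CPM in thrombin 4 h, 1.80, 2.51 and 2.82 in control 24 h and 5.31, 5.22 and 3.36 in thrombin 48 h. It was called only against thrombin 4 h (1.23 ± 0.24, edgeR adjusted p = 0.00796; against control 24 h 0.96 ± 0.24, edgeR adjusted p = 0.0859). NEDD9, a docking protein of focal adhesions, was at 17.3 to 23.9, 21.5 to 25.3 and 37.9 to 39.8 CPM, and thrombin 48 h stood apart in both comparisons (0.93 ± 0.12 and 0.73 ± 0.12, edgeR adjusted p = 6.92e-05 and 0.00201). Control 48 h means were 407.3 CPM for CALD1, 613.9 for TPM1, 3.266 for ACTG2 and 36.49 for NEDD9. Thrombin 48 h means were 413.2, 579.7, 4.626 and 38.65 CPM in that order.

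**Figure D4:**
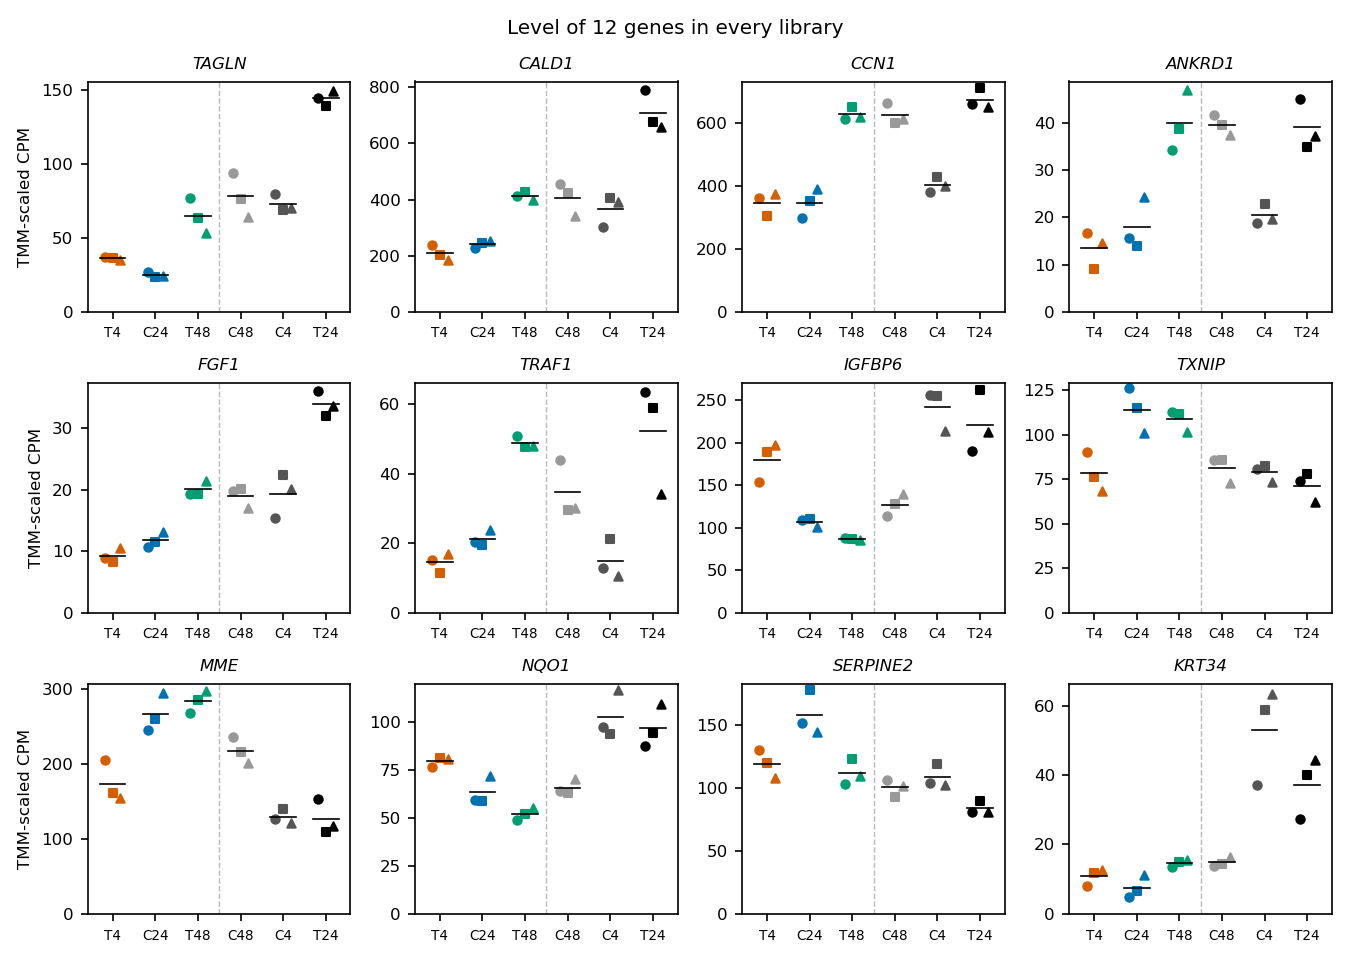
Each panel gives the TMM-scaled CPM of 1 gene in every library by group (T4, thrombin 4 h; C24, control 24 h; T48, thrombin 48 h; C48, C4 and T24, the other groups), with 1 marker shape per library number and a line at the group mean; the dashed line divides the 3 alike groups from the others. TAGLN, CALD1, CCN1, ANKRD1, FGF1 and TRAF1 are highest in T48 among the first 3 groups, IGFBP6 is highest in T4, and KRT34 is low in all 3.

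Of 22 NF-kappa-B targets 5 were higher in thrombin 48 h than in thrombin 4 h (BIRC3, CCL2, ICAM1, SOD2 and TRAF1) and 0 lower, with a median of 0.205. Against control 24 h 1 was higher, SOD2, and 0 lower (median 0.229), and control 24 h against thrombin 4 h called 0 (median 0.044). TRAF1, an adaptor of tumour necrosis factor receptors, was at 15.2, 11.4 and 16.9 CPM in thrombin 4 h, 20.5, 19.5 and 23.9 in control 24 h and 50.8, 47.6 and 47.8 in thrombin 48 h. The groups did not overlap and were ordered thrombin 4 h, control 24 h, thrombin 48 h. The step from the first to the last was 1.75 ± 0.26 (edgeR adjusted p = 0.00343; called in all 15 alternatives), and neither of the steps between neighbours was called (0.56 ± 0.27 and 1.19 ± 0.25, edgeR adjusted p = 0.901 and 0.0572). ICAM1, the leukocyte adhesion molecule, was at 10.9 to 15.1, 15.3 to 18.6 and 20.7 to 23.6 CPM in that order and 0.81 ± 0.15 higher in thrombin 48 h than thrombin 4 h (edgeR adjusted p = 0.00738; called in 12 of 15). The monocyte chemokine gene CCL2, at 4.31 to 5.80, 4.95 to 7.02 and 8.69 to 12.3 CPM, was 0.99 ± 0.23 higher (edgeR adjusted p = 0.0383; called in 8 of 15). Control 48 h means were 34.57 CPM for TRAF1, 16.01 for ICAM1 and 10.37 for CCL2. Thrombin 48 h means were 48.71, 22.65 and 10.52 CPM in that order.

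Growth factor genes were higher in thrombin 48 h for 2 of 25 members in both comparisons, FGF1 and FGF2, and lower for 0. FGF1, an acidic fibroblast growth factor, was at 8.90, 8.33 and 10.5 CPM in thrombin 4 h, 10.8, 11.5 and 13.1 in control 24 h and 19.4, 19.4 and 21.5 in thrombin 48 h. Thrombin 48 h lay 1.12 ± 0.13 above thrombin 4 h (edgeR adjusted p = 2.06e-05; called in all 15 alternatives) and 0.77 ± 0.13 above control 24 h (edgeR adjusted p = 0.00347). FGF2, the basic fibroblast growth factor, was at 54.5 to 58.6, 46.3 to 58.3 and 75.4 to 83.1 CPM, higher by 0.51 ± 0.10 and 0.65 ± 0.10 (edgeR adjusted p = 0.0115 and 0.00208; called in 9 and 14 of 15). TFPI2, an inhibitor of plasmin and tissue factor that is deposited in the matrix, rose from 104, 122 and 110 CPM in thrombin 4 h to 180, 203 and 221 in thrombin 48 h (0.85 ± 0.12, edgeR adjusted p = 0.000953; called in all 15 alternatives). Control 24 h, at 134 to 148 CPM, lay between them. Control 48 h means were 18.99 CPM for FGF1, 82.7 for FGF2 and 156.2 for TFPI2. Thrombin 48 h means were 20.09, 80.22 and 201.3 CPM in that order.

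IGFBP6, which binds insulin-like growth factor II, had the smallest adjusted p of thrombin 48 h against thrombin 4 h. In the order thrombin 4 h, control 24 h, thrombin 48 h it was at 154, 189 and 197, then 110, 110 and 101, then 87.8, 86.7 and 85.6 CPM. The groups did not overlap. It was lower by 1.05 ± 0.11 in thrombin 48 h than in thrombin 4 h (log2 fold change -1.05, edgeR adjusted p = 7.93e-06; called in all 15 alternatives) and by 0.75 ± 0.11 in control 24 h than in thrombin 4 h (-0.75, edgeR adjusted p = 0.00366; called in 11). The step between control 24 h and thrombin 48 h, -0.30 ± 0.11, was not called (edgeR adjusted p = 0.359).

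NRF2 targets, the antioxidant genes induced by that factor, were lower in thrombin 48 h than in thrombin 4 h for 2 of 19, NQO1 among them, and higher for 0, with a median of -0.166 and 1 positive difference. The other comparisons called 0 of 19 (medians -0.037 and -0.123). NQO1, a quinone reductase, was at 76.8, 81.5 and 81.1 CPM in thrombin 4 h, 59.3, 59.1 and 72.1 in control 24 h and 48.9, 52.1 and 55.3 in thrombin 48 h. The groups did not overlap, and the first and last differed by -0.61 ± 0.10 (edgeR adjusted p = 0.00187).

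Of 14 retinoid genes 2 were lower in thrombin 48 h than thrombin 4 h, CYP26B1 and DHRS3, and 0 higher. DHRS3, a retinal reductase, was low in all 3 groups, at 1.07 to 1.57, 0.661 to 1.34 and 0.342 to 0.617 CPM (-1.51 ± 0.36, edgeR adjusted p = 0.0374; called in 8 of 15 alternatives), and had 3.62 to 6.46 CPM in control 4 h and thrombin 24 h. CDH6, a cadherin, was at 3.83 to 4.69, 2.18 to 2.81 and 1.84 to 2.67 CPM (-0.93 ± 0.21, edgeR adjusted p = 0.0297; called in 9 of 15). The endothelial marker VWF was lower too, at 16.3 to 19.1 CPM in thrombin 4 h and 10.4 to 12.5 in thrombin 48 h (-0.60 ± 0.15, edgeR adjusted p = 0.0438; called in 8 of 15), alone among 10 tested endothelial markers, and the endothelial cadherin gene stayed below 1 CPM. Of 37 mitosis genes 3 were lower and 0 higher, CDCA3, FOXM1 and PLK1. FOXM1, a transcription factor of G2 and mitosis, was at 401, 489 and 507 CPM in thrombin 4 h and 363, 349 and 356 in thrombin 48 h (-0.39 ± 0.09, edgeR adjusted p = 0.0297; called in 8 of 15), and its control 24 h libraries, at 360 to 391 CPM, overlapped thrombin 48 h.

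Without the libraries numbered 12, most of these gene lists had more called members in thrombin 48 h against thrombin 4 h. The YAP/TAZ list then had 12 higher and 0 lower of 22, NF-kappa-B targets 7 and 0 of 22, and NRF2 targets 0 higher and 6 lower of 19. SRF/MRTF targets had 6 higher and 1 lower of 25, and mitosis genes 2 higher and 8 lower of 37. In thrombin 48 h against control 24 h the YAP/TAZ list had 4 higher and 0 lower, the NF-kappa-B list 2 and 0 and the SRF/MRTF list 3 and 0. The keratin and cytolinker list had 1 and 0 there. In control 24 h against thrombin 4 h the SRF/MRTF list had 0 higher and 1 lower. The NRF2 and chemokine lists each had 0 and 1 in that comparison, and thrombin receptors and binding proteins had 1 and 0. The counts for the 2 thrombin groups stand beside 1215 higher and 1315 lower of 15520 genes. Those for thrombin 48 h against control 24 h stand beside 51 and 17, and those for control 24 h against thrombin 4 h beside 26 and 52.

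**Figure D5:**
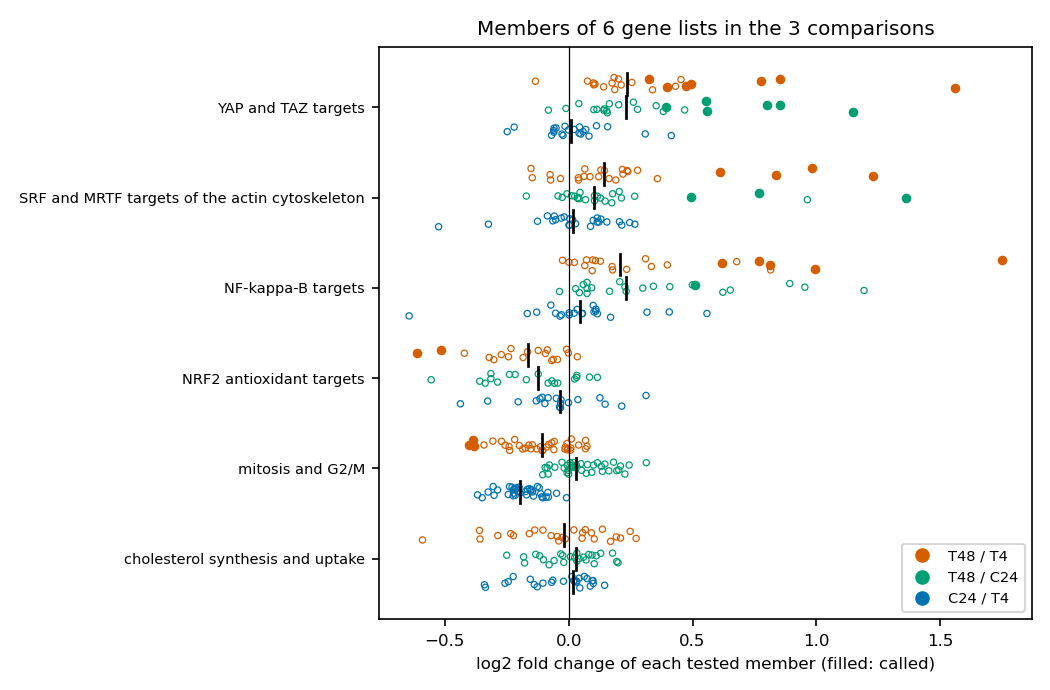
Each point is the log2 fold change of 1 tested gene of 6 lists in thrombin 48 h against thrombin 4 h (T48 / T4), thrombin 48 h against control 24 h (T48 / C24) and control 24 h against thrombin 4 h (C24 / T4); filled points are called and the black bars are medians. YAP/TAZ targets have medians of 0.234, 0.231 and 0.011 in that order, NRF2 targets lie mostly below 0 in the first, and no cholesterol gene is called.

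Thrombin 48 h against control 24 h called 36 genes higher (0.234%) and 19 lower (0.124%). Beside the contractile and YAP/TAZ genes above, they included matrix and receptor genes. The fibronectin gene FN1 was at 1865, 1743 and 1588 CPM in control 24 h and 3298, 3055 and 2893 in thrombin 48 h (0.83 ± 0.17, edgeR adjusted p = 0.0395; called in 7 of 15). EDN1, which encodes the vasoconstrictor endothelin 1, was at 1.85 to 3.06 and 3.79 to 5.49 CPM (0.91 ± 0.20, edgeR adjusted p = 0.0408; called in 6 of 15), and OXTR, the oxytocin receptor, at 52.1 to 68.1 and 96.1 to 105 CPM (0.74 ± 0.11, edgeR adjusted p = 0.00126). None of these 3 genes overlapped between the 2 groups. Control 48 h means were 3261 CPM for FN1, 5.528 for EDN1 and 107 for OXTR. Thrombin 48 h means were 3082, 4.849 and 100.5 CPM in that order.

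The genes lower in thrombin 48 h than control 24 h included the thrombin receptor itself. F2R was at 266, 283 and 273 CPM in control 24 h and 200, 216 and 214 in thrombin 48 h, without overlap (-0.38 ± 0.08, edgeR adjusted p = 0.0216; called in 7 of 15 alternatives). SERPINE2, which encodes the thrombin inhibitor protease nexin 1, was at 151, 178 and 144 CPM in control 24 h and 103, 123 and 109 in thrombin 48 h, again without overlap (-0.50 ± 0.09, edgeR adjusted p = 0.0138; called in 10 of 15). These were the 2 members called, both lower, of 7 tested thrombin receptors and binding proteins. Thrombin 4 h lay at 243, 227 and 227 CPM for F2R and 130, 120 and 108 for SERPINE2, and neither gene was called between it and either of these groups. Control 48 h means were 192.4 CPM for F2R and 100.2 for SERPINE2, beside 210.1 and 111.8 in thrombin 48 h.

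Several signalling genes were also lower in thrombin 48 h than control 24 h. NR4A2, an orphan nuclear receptor induced early by stimuli, was at 5.75, 7.39 and 6.01 CPM in control 24 h and 3.27, 3.33 and 3.90 in thrombin 48 h (-0.87 ± 0.16, edgeR adjusted p = 0.00899; called in 9 of 15). GRK5, a kinase that desensitizes G-protein-coupled receptors, was at 115 to 125 and 83.3 to 95.1 CPM (-0.43 ± 0.08, edgeR adjusted p = 0.00899; called in 10 of 15). VTN, the adhesive protein vitronectin, was at 10.2 to 13.8 and 6.02 to 7.71 CPM (-0.79 ± 0.17, edgeR adjusted p = 0.0354; called in 8 of 15), and was lower than in thrombin 4 h as well (-0.90 ± 0.17, edgeR adjusted p = 0.00548). The groups did not overlap for any of the 3 genes. Control 48 h means were 3.476 CPM for NR4A2, 80.46 for GRK5 and 9.628 for VTN. Thrombin 48 h means were 3.499, 87.99 and 6.659 CPM in that order.

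Control 24 h and thrombin 4 h, which differ in both agent and time, were the closest pair, and all 11 called genes can be named. Higher in control 24 h were 8 (0.0521%): OLFML2A, GNPDA1, MME, ANXA4, TXNIP, CD63, GRIA1 and TGFBR3. Lower were 3 (0.0195%): IGFBP6, described above, CLDN11 and FAM83D. None of the 11 kept its call in all 15 alternative settings, and 10 of them were called without the libraries numbered 12, when 78 genes were called.

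OLFML2A, an extracellular matrix protein gene, was at 80.4, 67.2 and 67.1 CPM in thrombin 4 h and 105, 108 and 100 in control 24 h (0.55 ± 0.09, edgeR adjusted p = 0.0241). MME, which encodes the membrane peptidase neprilysin, was at 206, 162 and 154 and 246, 260 and 295 CPM (0.62 ± 0.11, edgeR adjusted p = 0.0322). Thrombin 48 h lay with control 24 h for MME (269, 285 and 298 CPM) and between the groups for OLFML2A (86.1 to 95.6 CPM). TXNIP, a thioredoxin-binding protein induced by glucose and by loss of growth signals, was at 90.3, 76.5 and 68.2 CPM in thrombin 4 h, 126, 115 and 101 in control 24 h and 113, 112 and 102 in thrombin 48 h. It was higher than in thrombin 4 h by 0.54 ± 0.10 and 0.47 ± 0.10 in the 2 later groups (edgeR adjusted p = 0.0463 and 0.0241), which overlapped each other.

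GRIA1, a glutamate receptor subunit gene, was the 1 gene past 2-fold, at 1.212, 1.11 and 0.744 CPM in thrombin 4 h and 2.74, 2.64 and 2.52 in control 24 h (1.35 ± 0.27, edgeR adjusted p = 0.0463). GNPDA1, a glucosamine-6-phosphate deaminase gene, ANXA4, an annexin, CD63, a tetraspanin of endosomes and exosomes, and TGFBR3, the TGF-beta coreceptor betaglycan, were higher by 0.38 to 0.55. CD63 was at 515, 581 and 512 CPM in thrombin 4 h and 704, 703 and 689 in control 24 h. CLDN11, a tight-junction claudin, was at 317, 319 and 350 CPM in thrombin 4 h and 230, 234 and 270 in control 24 h (-0.42 ± 0.07, edgeR adjusted p = 0.0241), and FAM83D, a spindle-associated protein gene, was at 160, 172 and 174 and 137, 127 and 120 CPM (-0.40 ± 0.08, edgeR adjusted p = 0.047). None of these 3 genes overlapped between the 2 groups. Of 37 mitosis genes none was called in this comparison (0 higher and 3 lower without number 12), though all 37 had a negative difference and the median was -0.195 beside -0.003 over all genes.

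Over the 193 separating genes, thrombin 48 h was at one end for most. The choice of the genes largely fixes this, and the order is given as a description. All but 5 of the 193 were called in a comparison that includes thrombin 48 h. Its mean was the highest of the 3 for 74 genes with thrombin 4 h lowest and for 27 with control 24 h lowest. It was the lowest for 67 genes with thrombin 4 h highest and for 15 with control 24 h highest. In the other 10 genes thrombin 48 h lay in the middle.

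The separating genes were then looked up in comparisons that use none of the same libraries. The groups were chosen for alike profiles, which can favour a direction in these look-ups in advance. All comparisons also share 1 fit to the 18 libraries. The shares below are therefore descriptions. Of the 36 genes higher in thrombin 48 h than control 24 h, 23 (63.9%) were lower and 0 higher in thrombin 4 h than control 4 h, where 5.52% of all tested genes were lower. Of the 19 genes lower in thrombin 48 h than control 24 h, 7 were higher (36.8%) and 1 lower there, beside 6.29% of all genes that were higher. Of the 98 genes higher in thrombin 48 h than thrombin 4 h, 62 (63.3%) were lower and 11 higher in control 24 h than thrombin 24 h, where 9.05% of all genes were lower and 8.54% higher. TAGLN, CALD1, TPM1 and FGF1 were lower in both look-ups, and CCN1 and CCN2 only in control 24 h against thrombin 24 h, with -0.21 ± 0.09 and -0.26 ± 0.12 in thrombin 4 h against control 4 h (edgeR adjusted p = 0.133 and 0.181). For the 72 genes lower in thrombin 48 h than thrombin 4 h the look-up in control 24 h against thrombin 24 h gave 9 higher (12.5%) and 20 lower (27.8%). The 11 genes of control 24 h against thrombin 4 h were looked up in thrombin 48 h against control 48 h, where 0 genes were called; the 8 had a median of 0.27 and the 3 a median of -0.29.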

How the data were processed

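Gene-level read counts of 18 poly(A)-enriched RNA-seq libraries were used. The authors deposited raw counts per gene symbol, as whole numbers. The build GRCh38 (hg38) and the tools DESeq2, SAMtools 1.21, cutadapt 4.9 and Bowtie2 2.5.4 are listed in the submitters' processing notes, while the counter, the annotation and the strand setting are not given in the sources used here. Genes with near-identical copies and antisense pairs are therefore uncertain.

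From these counts, genes were kept by filterByExpr (minimum count 10, minimum total 15), which left 15353 of 28278 symbols and at least 99.9% of each library's counts. A quasi-likelihood model of edgeR 4.0.16 (R 4.3.3) with a mean per group, TMM scaling (0.945 to 1.031) and robust dispersion was fitted to all 18 libraries (12 residual degrees of freedom). Tests were two-sided, and p-values were adjusted over these 15353 genes by the Benjamini-Hochberg method. Groups came from the labels alone. Distances and principal components used log2 CPM with a prior count of 2. Coordinates and promoters came from RefSeq (GRCh38.p14), in which 95.5% of symbols were found.

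The groups, the 52 gene lists and the tests were chosen with earlier results of these data known, so counts over lists are descriptions. Genes named were those with the 10 largest changes in each direction among called genes with a mean of at least 1 CPM in a group, the 5 smallest adjusted p, all 11 genes of control 24 h against thrombin 4 h, up to 4 called members of each list, and anchor genes of stellate cells; names outside this are part of a complete count or were chosen after their values were seen. The alternatives were other size factors, DESeq2 1.42.0, no filter on low counts, only the groups compared, the library number as a block, and leaving out libraries; a fit to the 9 libraries alone was added after the data were seen. The procedure was tested on simulated data. Values of some of these genes are not reported here.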

Additional observations from a re-analysis of the deposited data

Results flagged for a closer look

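Only 8 genes of the shared state, picked from those given with values above, were looked at here. All 8 had the thrombin libraries on one side of the control libraries at 4 h and on the other at 24 h. There was no overlap at either time. How many other genes do the same was not counted. The values are thrombin against control at 24 h minus the same at 4 h, on the log2 scale. For the genes that were high in thrombin 4 h and control 24 h, the difference was -3.96 for PPL, -3.10 for METTL7A, -2.28 for C3 and -2.13 for GDF15. For the genes that were low there, it was 7.88 for KRTAP2-3, 5.78 for CXCL8, 4.58 for KRT34 and 4.37 for RARB. The difference was not tested, since the genes were picked for calls on opposite sides at these times.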

How the results depend on the processing

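Numbers of called genes are given in the order thrombin 48 h against thrombin 4 h, control 24 h against thrombin 4 h, thrombin 48 h against control 24 h (170, 11 and 55 in the report). DESeq2 size factors gave 169, 10 and 55. DESeq2 called 313, 37 and 119 genes, 20 for thrombin 48 h against control 48 h and 450 for any difference among the 3 groups (142 in the report). Without a filter on low counts there were 490, 68 and 245, with 50 for thrombin 48 h against control 48 h and 536 for any difference. With only the groups compared there were 217, 9 and 200, with 2 at 48 h and 220 for any difference, and with the 9 libraries alone 260, 14 and 110. Leaving out libraries, singly or by number, gave 7 to 2530, 0 to 78 and 2 to 68, with 7 to 1583 for any difference, 96 to 3560 for thrombin 4 h against control 4 h, 936 to 2489 for control 24 h against thrombin 24 h and 0 to 5 for thrombin 48 h against control 48 h. The lowest counts came without number 13 and the highest mostly without number 12, and fewer libraries were then fitted. No direction reversed. Of the named genes, 7 of 72 kept their call in all alternatives in thrombin 48 h against thrombin 4 h, 0 of 11 in control 24 h against thrombin 4 h and 2 of 36 in thrombin 48 h against control 24 h.

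The library numbers gave no pairing: of 9 same-number pairs over the 3 groups 2 had a correlation of deviations over 0.1 (range -0.16 to 0.19), and 2 of 9 libraries correlated best with their own number. The replicate block gave 206, 21 and 93 genes, 1 for thrombin 48 h against control 48 h and 203 for any difference. Genes near the count minimum, such as DHRS3 and GRIA1, have few counts behind their values, and with 3 libraries a group smaller differences may go uncalled.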
